A study of Mus musculus with 10 samples.

Results

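The 10 genes described here are metallothioneins and enzymes of the antioxidant response, chosen by symbol from the 53974 genes in the RNA-seq table of sorted, axotomized mouse retinal cells. They are the metallothioneins *Mt1*, *Mt2* and *Mt3*, the haem and quinone enzymes *Hmox1* and *Nqo1*, the glutathione supply genes *Slc7a11*, *Gclc* and *Gclm*, and the thioredoxin and sulfiredoxin enzymes *Txnrd1* and *Srxn1*. All 10 were measured, and all 10 had a TPM (a transcript level corrected for length and scaled to the same total in each library) of at least 1 in each of the 6 RNA-seq libraries. None of the 10 passed an adjusted p of 0.05 in limma between the groups, and over all 17555 genes tested 1 did (0.00570%). The study itself, with DESeq2, reported many genes up and down at that adjusted threshold, so these counts hold for the fit used here. Many of the 10 genes, but not *Hmox1*, *Nqo1* and *Slc7a11*, followed at least 1 of 2 patterns over the libraries that crossed the groups. The 3 metallothioneins were high in the same 3 libraries, an order that 7.97% of all genes tested held. The third replicate of both groups was lowest for 5 members and for 16.8% of all genes tested. *Hmox1* was the only member whose groups did not overlap, at 25.2 ± 8.55 TPM in the libraries labelled WT and 13.3 ± 2.02 TPM in those labelled cKO (mean ± SD, n = 3 each), where 7.18% of all genes tested were lower and 18.7% higher in cKO without overlap.

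The study asked how loss of *Arid1a*, which encodes a subunit of the SWI/SNF chromatin remodelling complex, alters RNA and open chromatin in retinal ganglion cells (RGCs) once the optic nerve has been crushed (optic nerve crush, ONC). C57BL/6 mice with floxed *Arid1a* alleles, whose age the labels give as 8-10 weeks without saying at which step, received an intravitreal injection of AAV2-GFP (labelled WT, genotype *Arid1a* fl/fl) or AAV2-Cre (labelled cKO, genotype *Arid1a* del/del) 2 weeks before ONC. Cells positive for Thy1.2 and negative for DAPI were sorted 3 days after ONC, which gave 3 WT and 3 cKO libraries for RNA-seq and 2 WT and 2 cKO libraries for ATAC-seq. Every group therefore carried the floxed allele, an AAV2 vector and the nerve injury, and no uninjured or uninjected group is described here. The study gives a higher titre for AAV2-GFP than for AAV2-Cre, so vector dose cannot be told apart from the label. The CMV promoter that drove Cre and GFP is not specific to RGCs, and 4-5 retinas were pooled for each sample, so the replicates are pools and not single animals. Libraries are named below by label and replicate number, for example WT1 and cKO3.

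Several features of the libraries bear on all results below. *Arid1a* RNA, the target of the deletion, was at 18.8, 11.7 and 14.1 TPM in WT1 to WT3. In cKO1 to cKO3 it was at 18.8, 27.9 and 25.0 TPM, so it was not lower in the libraries labelled cKO. The log2 fold change was 0.66 (SE 0.28, adjusted p = 0.274 from limma), and directions are given by label throughout. By staining of retina sections, the study reported less ARID1A protein after AAV2-Cre in cells positive for the neuronal marker Tuj1. The RGC transcription factor *Pou4f2* was listed at 0 in 5 libraries and at 0.143 TPM in cKO3. Among the other RGC markers, *Thy1*, the sort marker, was at 51.9 to 129 TPM and *Isl1* at 51.9 to 104 TPM. At an unadjusted p under 0.05, 3 of 10 tested (*Thy1*, *Tubb3* and *Stmn2*) were higher in cKO and 0 lower. Of all genes tested, 11.9% were higher and 6.45% lower. The summed TPM of 12 RGC markers was 148-206 in WT and 234-262 in cKO libraries, and *Thy1* and *Isl1* made up most of it in each. Of the 10 tested, 7 had log2 fold changes above 0 and 3 below it (*Rbpms* -0.41, *Pou4f1* -0.64 and *Sncg* -0.83). By contrast, 10 rod markers summed to 12484-17482 TPM in WT and 25955-48724 TPM in cKO libraries, and 10 Müller glia markers summed to 9751-19277 and 7873-18007 TPM. All 10 rod markers were higher in the cKO libraries at an unadjusted p under 0.05. The sums of T cell markers (10 genes, 646-1866 against 165-398 TPM) and myeloid markers (12 genes, 2253-3484 against 931-1293 TPM) did not overlap between the labels either, and both were lower in cKO. As single genes, 6 of the 10 T cell and 6 of the 12 myeloid markers were lower without overlap, where 7.18% of all genes tested were. The markers of RGCs were thus low beside those of rods and Müller glia, and the cells are called sorted retinal cells here. By staining, the study reported almost all of the sorted cells as positive for Tuj1. In bulk libraries, fewer cells of a type and less RNA per cell cannot be told apart. The part of these cell mixtures in the results below was not tested.

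Metallothioneins are small cysteine-rich proteins that bind zinc and copper. Their genes are switched on by the zinc-sensing transcription factor MTF-1, which binds metal response elements in their promoters, and in nervous tissue *Mt1* and *Mt2* are known to be induced in glia by injury. The other 7 genes are classical targets of NRF2, encoded by *Nfe2l2*, which KEAP1 marks for degradation in unstressed cells and which binds antioxidant response elements together with small MAF proteins, while BACH1 represses some of the same genes. Together these enzymes degrade haem, reduce quinones, supply glutathione and keep thioredoxin and peroxiredoxins in their working state.

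The promoters of the metallothioneins are printed because these genes shared an RNA profile, and those of *Gclm*, *Txnrd1* and *Srxn1* because an ATAC-seq region lay over the start site. For *Txnrd1*, the inner start site is the first one inside the gene. A region also lay over the next one, whose window is not printed and held none of the motifs counted below. Windows from 250 bases before to 50 bases after a start site were taken from RefSeq on GRCm38.p6 for 8 members (10 windows), and none was held for *Hmox1* and *Gclc*. In the first 3 sequences, capitals mark the core of the metal response element (TGCACNC or TGCGCNC, on either strand).
*Mt1* (chr8:94178839-94179138, plus strand): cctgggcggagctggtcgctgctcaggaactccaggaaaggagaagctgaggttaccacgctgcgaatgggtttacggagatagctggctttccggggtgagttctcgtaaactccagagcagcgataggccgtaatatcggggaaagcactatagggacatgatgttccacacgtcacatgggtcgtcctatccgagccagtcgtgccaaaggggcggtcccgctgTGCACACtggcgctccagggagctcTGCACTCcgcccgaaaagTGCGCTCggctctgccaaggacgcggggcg
*Mt2* (chr8:94172368-94172667, plus strand): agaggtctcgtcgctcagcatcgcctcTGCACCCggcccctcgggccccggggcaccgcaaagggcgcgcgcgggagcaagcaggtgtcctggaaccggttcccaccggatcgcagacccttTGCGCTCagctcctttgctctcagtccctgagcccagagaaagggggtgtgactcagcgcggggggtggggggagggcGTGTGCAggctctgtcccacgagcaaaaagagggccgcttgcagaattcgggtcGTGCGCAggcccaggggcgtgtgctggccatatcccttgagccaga
*Mt3* (chr8:94152357-94152656, plus strand): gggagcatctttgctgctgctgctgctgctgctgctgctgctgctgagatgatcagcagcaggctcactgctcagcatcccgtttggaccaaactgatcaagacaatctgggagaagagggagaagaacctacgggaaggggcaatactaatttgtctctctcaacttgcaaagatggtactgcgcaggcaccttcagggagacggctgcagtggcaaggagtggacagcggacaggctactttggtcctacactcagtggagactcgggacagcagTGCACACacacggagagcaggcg
In the next 3, capitals mark the core of the antioxidant response element (TGACNNNGC or TGAGNNNGC, on either strand).
*Gclm* (chr3:122245307-122245606, plus strand): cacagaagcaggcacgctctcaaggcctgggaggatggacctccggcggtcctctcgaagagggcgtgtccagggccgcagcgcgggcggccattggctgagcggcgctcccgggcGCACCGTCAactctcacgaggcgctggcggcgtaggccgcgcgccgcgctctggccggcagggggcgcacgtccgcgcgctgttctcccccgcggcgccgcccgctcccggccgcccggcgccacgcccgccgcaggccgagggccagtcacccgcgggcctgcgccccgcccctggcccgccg
*Txnrd1*, inner start site (chr10:82858956-82859255, plus strand): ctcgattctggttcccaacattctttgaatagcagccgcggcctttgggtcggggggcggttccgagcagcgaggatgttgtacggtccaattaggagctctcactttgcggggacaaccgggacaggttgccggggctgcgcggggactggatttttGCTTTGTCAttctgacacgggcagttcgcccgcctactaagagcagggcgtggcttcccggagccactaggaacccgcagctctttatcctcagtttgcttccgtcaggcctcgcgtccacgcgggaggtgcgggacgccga
*Srxn1* (chr2:152105274-152105573, plus strand): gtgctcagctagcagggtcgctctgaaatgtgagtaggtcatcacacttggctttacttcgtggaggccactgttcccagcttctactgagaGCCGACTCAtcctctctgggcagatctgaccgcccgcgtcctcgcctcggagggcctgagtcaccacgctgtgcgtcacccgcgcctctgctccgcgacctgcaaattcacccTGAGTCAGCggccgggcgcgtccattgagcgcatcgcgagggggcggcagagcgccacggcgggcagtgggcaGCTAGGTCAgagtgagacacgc

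The metal response element core occurred 3 times in the *Mt1* window, 4 times in *Mt2* and 1 time in *Mt3*. Among 32851 promoter windows of the same length, 25.7% held at least 1 such match and 1.97% held 3 or more, and *Gclm* also held 3. Counted in bases from the start site at 0, the matches of *Mt1* begin at -23, 2 and 20 and those of *Mt2* at -223, -128, -50 and 4. The antioxidant response element core occurred 3 times in *Srxn1*, where 0.630% of all windows held 3 or more and 27.8% at least 1. It occurred 1 time each in *Mt2*, *Mt3*, *Gclm*, *Slc7a11* and the inner start site of *Txnrd1*. These letters were not found in the windows of *Mt1* and *Nqo1* or at the other start sites of *Txnrd1*. In *Srxn1* the AP-1 site (TGACTCA or TGAGTCA), present in 5.20% of windows, occurred 2 times, at -102 and -45, and the match at -45 shares its letters with an antioxidant response element core. The same overlap was present in *Mt2* at -79. GC boxes (GGGCGG), found in 35.7% of windows, numbered 4 in *Gclm*, 3 in *Mt1*, 2 each in *Srxn1* and *Nqo1* and 1 at the inner start site of *Txnrd1*. The *Slc7a11* window lies inside the gene, at chr3:50443564-50443863. These matches are letters in a fixed window and were not tested for binding.

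The metallothioneins lie side by side on chromosome 8, *Mt3* at chr8:94152607-94154148, *Mt2* at chr8:94172618-94173567 and *Mt1* at chr8:94178883-94180327. *Mt1* was at 82.2, 34.5 and 37.2 TPM in WT1 to WT3 and at 106, 140 and 30.8 TPM in cKO1 to cKO3. The highest cKO library lay above all WT libraries and the lowest below them all, so the groups overlapped. *Mt2*, at a far lower level, was at 7.99, 1.14 and 1.59 TPM in WT and 4.42, 8.25 and 1.96 TPM in cKO. *Mt3*, a metallothionein best known from neural tissue, was at 32.3, 13.0 and 4.66 TPM in WT and 27.8, 56.6 and 11.8 TPM in cKO. In all 3 genes WT1 ranked with cKO1 and cKO2, and WT2 and WT3 ranked with cKO3. The log2 fold changes of TPM + 1, cKO minus WT, were 0.70 (SE 0.61) for *Mt1*, 0.53 (SE 0.65) for *Mt2* and 1.00 (SE 0.76) for *Mt3*. Their adjusted p-values from limma were 0.574, 0.700 and 0.517, and no difference beyond the spread of the libraries was detected. Leaving out single libraries moved these fold changes between 0.27 (without cKO2) and 1.35 (without cKO3) for *Mt1*, between 0.12 (without cKO2) and 1.17 (without WT1) for *Mt2*, and between 0.36 (without WT3) and 1.64 (without WT1) for *Mt3*. Without cKO3, the lowest cKO library, *Mt1* had an unadjusted p of 0.0186 and an adjusted p of 0.175.

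**Figure D1:**
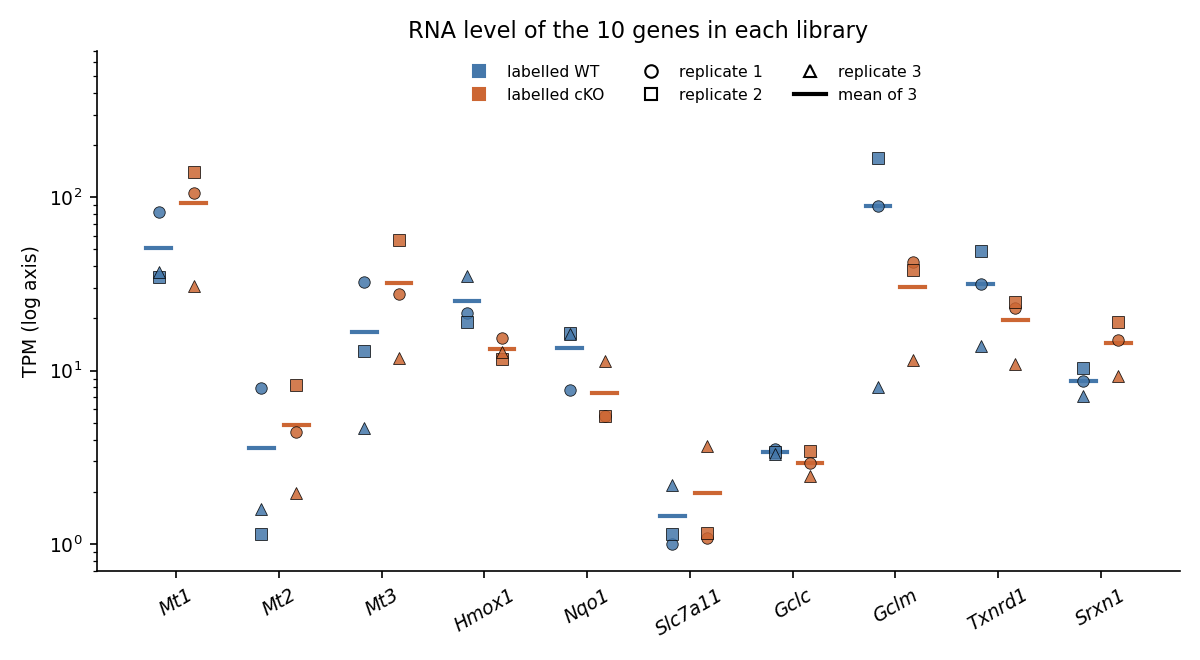
RNA levels of the 10 genes in TPM on a log axis, with blue points for the libraries labelled WT, orange points for those labelled cKO, a shape for each replicate number and a bar at the mean of 3. *Hmox1* alone has all cKO points below all WT points, and the replicate 3 triangles of *Gclm* (8.00 and 11.5 TPM) sit far below its other points.

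The order WT1, cKO1 and cKO2 above WT2, WT3 and cKO3 was held by 3 of the 10 members, all metallothioneins, and by 7.97% of the 17555 genes tested. It was also held by 10 of the 79 other pathway genes tested, *Gpx1*, *Gsta4*, *Gstm5*, *Gsto1*, *Gstt1*, *Txn1*, *Sod1*, *Hmox2*, *Cbr1* and *Esd*. The summed Müller glia markers followed the opposite order, at 9751 TPM in WT1, 7873 in cKO1 and 8124 in cKO2, against 17436, 19277 and 18007 TPM in WT2, WT3 and cKO3. The part of Müller glia RNA in the metallothionein profiles was not tested. The genes whose centred profile over the 6 libraries lay nearest to the mean of *Mt1* and *Mt2* included *Trmt112*, *Crybb2*, *Micos13* and *Psma6*. Their root mean square differences were 0.07, 0.11, 0.12 and 0.12 on the log2 scale. They were picked as the nearest of all genes tested, so these small values follow from the choice. *Trmt112*, which encodes an activator of methyltransferases, was at 34.6, 10.0 and 12.4 TPM in WT and at 33.8, 49.4 and 11.3 TPM in cKO. *Psma6*, a proteasome subunit gene, was at 68.4, 20.8 and 28.9 against 61.3, 94.6 and 20.9 TPM. *Crybb2*, a lens crystallin gene, was listed at 0 in WT2, WT3 and cKO3 and at 1.68, 1.39 and 3.32 TPM in WT1, cKO1 and cKO2. It passed the filter of 1 TPM in 3 libraries through WT1, cKO1 and cKO2 alone, so its match rests on values near the floor.

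**Figure D2:**
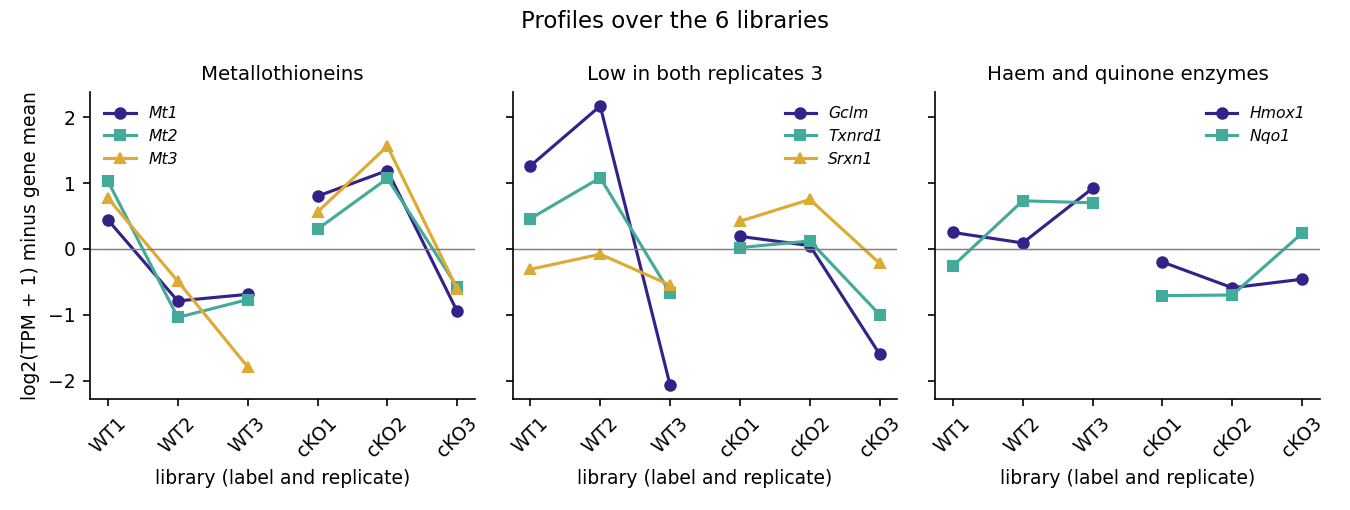
Deviation of log2(TPM + 1) from each gene's mean in each library for the metallothioneins, for 3 genes that were low in both replicate 3 libraries, and for the haem and quinone enzymes. Lines join the points of 1 gene within a label and carry no order of the replicates. The metallothionein lines are above 0 in WT1, cKO1 and cKO2 and below it in WT2, WT3 and cKO3, while *Gclm*, *Txnrd1* and *Srxn1* are at their lowest in replicate 3 of each label.

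*Hmox1* (chr8:75093618-75100593) encodes haem oxygenase 1, which splits haem into biliverdin, iron and carbon monoxide. It was at 21.5, 19.2 and 35.0 TPM in the WT libraries and at 15.5, 11.6 and 12.8 TPM in the cKO libraries, and every cKO value lay below every WT value. The log2 fold change was -0.84 (SE 0.30), with an unadjusted p of 0.0262 and an adjusted p of 0.211 from limma. The exact two-sided permutation test gave 0.1, the smallest p that 3 against 3 libraries allow. With single libraries left out, the unadjusted p stayed under 0.05 without cKO1 (0.0405), WT1 (0.0363) or WT2 (0.0163), and was above it without cKO2 (0.0849), cKO3 (0.0596) or WT3 (0.0930). Without both replicate 3 libraries the log2 fold change was -0.56 (SE 0.33, adjusted p = 0.439). Myeloid markers had lower summed levels in every cKO library (931-1293 TPM) than in any WT library (2253-3484 TPM), with all 12 fold changes below 0 (median -0.96) and 6 at an unadjusted p under 0.05. Their part in the *Hmox1* values was not tested. The genes nearest in profile to *Hmox1* were *Ifi207*, *Apol9a*, *Lrrk1*, *Acvrl1* and *Sh2d3c*, at root mean square differences of 0.05 to 0.12. They too were picked as the nearest of all genes tested, so these small values follow from the choice. *Ifi207*, an interferon-inducible gene, was at 4.27, 3.89 and 7.73 TPM in WT and 3.11, 2.14 and 2.59 TPM in cKO.

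*Nqo1* (chr8:107388225-107403205) encodes a quinone reductase that uses NADH or NADPH and is a common readout of NRF2 activity. Its levels were 7.78, 16.5 and 16.2 TPM in WT and 5.45, 5.47 and 11.4 TPM in cKO. The cKO libraries were lower on average, but cKO3 exceeded WT1 and the groups overlapped. The log2 fold change was -0.78 (SE 0.41, adjusted p = 0.354 from limma), and its unadjusted p of 0.0992 became 0.0480 with the replicate number as a block and 0.0429 after scaling by the median of ratios, with no adjusted p under the threshold. Of all genes tested, 21.9% were under an unadjusted p of 0.05 with the block and 17.2% after scaling. The labels do not say that the numbers pair the libraries.

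Of the glutathione supply genes, *Slc7a11* (chr3:50364936-50499087) encodes the light chain of the cystine-glutamate exchanger. It was near the lowest level kept, at 1.00, 1.14 and 2.19 TPM in WT and 1.09, 1.15 and 3.66 TPM in cKO. Both replicate 3 libraries were its highest, the reverse of the pattern in *Gclm*. *Gclc* (chr9:77754535-77794489), the catalytic subunit of glutamate-cysteine ligase, which makes the first and limiting step of glutathione synthesis, was at 3.54, 3.38 and 3.31 TPM in WT and 2.93, 3.43 and 2.48 TPM in cKO. It varied least of all members, and the groups overlapped through cKO2. *Gclm* (chr3:122245487-122267215), the modifier subunit of the same enzyme, was at 89.2, 169 and 8.00 TPM in WT and 42.2, 38.0 and 11.5 TPM in cKO. In replicates 1 and 2 the WT libraries were above the cKO libraries, and in replicate 3 both labels were low with WT below cKO. The log2 fold changes were 0.20 (SE 0.41) for *Slc7a11*, -0.17 (SE 0.26) for *Gclc* and -0.91 (SE 1.08) for *Gclm*, with adjusted p-values of 0.820, 0.763 and 0.684. Without both replicate 3 libraries the log2 fold change of *Gclm* was -1.59 (SE 0.39), with an unadjusted p of 0.00892 and an adjusted p of 0.316 from limma. Leaving out single libraries moved it between -2.17 and -0.05, with the unadjusted p at 0.0119 without WT3 and 0.965 without WT2.

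*Txnrd1* (chr10:82833951-82897724) encodes the cytosolic thioredoxin reductase, and *Srxn1* (chr2:152105524-152111376) encodes sulfiredoxin, which restores overoxidized peroxiredoxins. *Txnrd1* was at 31.8, 49.2 and 13.9 TPM in WT and 23.1, 24.9 and 10.9 TPM in cKO, below its same-numbered WT library in each replicate. *Srxn1* was at 8.68, 10.3 and 7.16 TPM in WT and 15.0, 19.2 and 9.29 TPM in cKO, above its same-numbered WT library in each replicate. Across replicate numbers both genes overlapped between the labels, since replicate 3 was the lowest in each. The log2 fold changes were -0.58 (SE 0.51, adjusted p = 0.582) for *Txnrd1* and 0.63 (SE 0.33, adjusted p = 0.347) for *Srxn1*. Leaving out single libraries moved that of *Txnrd1* between -1.06 (without WT3) and -0.18 (without WT2), and that of *Srxn1* between 0.42 (without cKO2) and 0.90 (without cKO3). With the replicate number as a block in limma the unadjusted p of *Txnrd1* went from 0.297 to 0.0582, and that of *Srxn1* from 0.0951 to 0.0492. In the blocked fit 21.9% of all genes tested were under 0.05. The labels do not say that the numbers pair the libraries, so same-numbered comparisons rest on an inferred pairing.

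**Figure D3:**
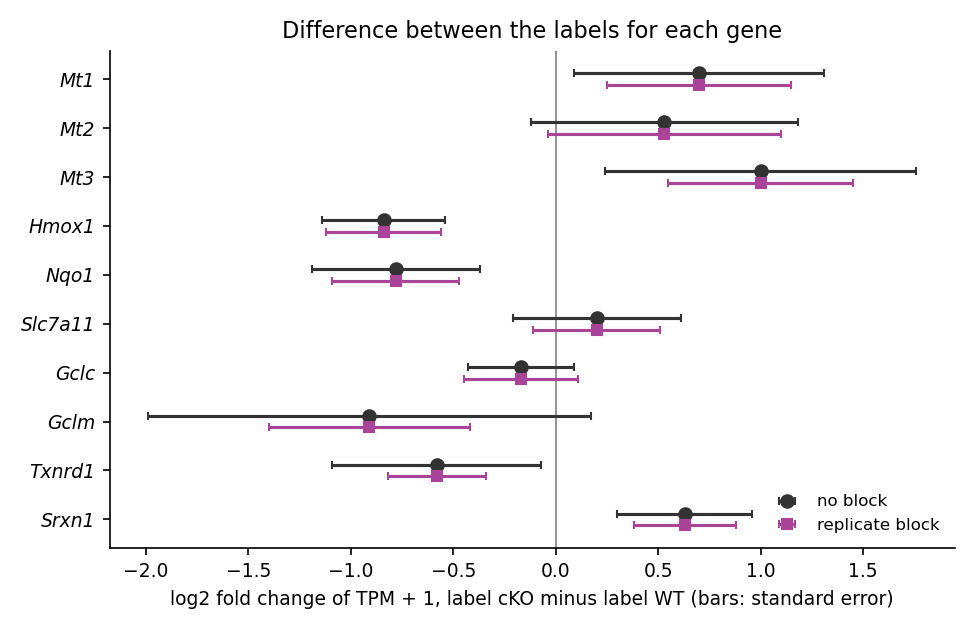
Log2 fold change of TPM + 1 (cKO minus WT) of each gene with its standard error from limma, in the fit without a block (black circles) and in the blocked fit (purple squares). The estimates are the same in both fits and the bar of *Gclm* shortens from 1.08 to 0.49 with the block.

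Counted over the members, 0 of 10 passed an adjusted p of 0.05 in limma, and the background was 0.00570% (1 of 17555 genes). At an unadjusted p under 0.05, 1 member (*Hmox1*) was lower and 0 were higher in cKO, where 6.45% of all genes tested were lower and 11.9% higher. Likewise, 1 member was lower and 0 were higher without overlap between the labels, against 7.18% and 18.7% of all genes tested. These shares are near the background. With the replicate block, 3 members (*Hmox1*, *Nqo1* and *Srxn1*) were at an unadjusted p under 0.05, and their adjusted p-values were 0.175, 0.224 and 0.227. In the blocked fit 8.52% of all genes tested were lower and 13.4% higher at that threshold. The fold changes were split evenly, 5 above and 5 below 0, with a median of 0.02 where the median of all genes was 0.16. The lowest library was replicate 3 in both labels for 5 members (*Mt3*, *Gclc*, *Gclm*, *Txnrd1* and *Srxn1*) and for 16.8% of all genes tested, and for 15 of the 79 other pathway genes.

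In the WT libraries *Gclm* had the highest mean level, at 88.8 ± 80.5 TPM, followed by *Mt1* at 51.3 ± 26.8, *Txnrd1* at 31.6 ± 17.6 and *Hmox1* at 25.2 ± 8.55 TPM (SD, n = 3). These neighbours did not differ beyond their spread. *Mt3* (16.7 ± 14.2), *Nqo1* (13.5 ± 4.93) and *Srxn1* (8.72 ± 1.57 TPM) followed, again within their spread. *Mt2* (3.57 ± 3.83), *Gclc* (3.41 ± 0.116) and *Slc7a11* (1.44 ± 0.650 TPM) were lowest, and *Slc7a11* lay below *Gclc* in each WT library. In the cKO libraries *Mt1* came first at 92.3 ± 55.8 TPM, then *Mt3* at 32.1 ± 22.7, *Gclm* at 30.5 ± 16.6 and *Txnrd1* at 19.6 ± 7.61 TPM. There *Srxn1* (14.5 ± 4.97 TPM) stood beside *Hmox1* (13.3 ± 2.02 TPM), and *Nqo1* (7.45 ± 3.44), *Mt2* (4.88 ± 3.17), *Gclc* (2.95 ± 0.474) and *Slc7a11* (1.97 ± 1.47 TPM) were lowest.

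Around the members, 81 further genes of the same pathways were taken from fixed lists and 79 were tested. None reached an adjusted p of 0.05 in limma, and at an unadjusted p under 0.05, 8 were higher and 8 lower in cKO, where 11.9% and 6.45% of all genes tested were. The median of their log2 fold changes was 0.01. The counts depended on the fit. With the replicate block 13 were lower and 7 higher, where 8.52% of all genes tested were lower and 13.4% higher. After scaling by the median of ratios 16 were lower and 3 higher, where 9.54% of all genes tested were lower and 7.62% higher. Among the NRF2 regulators (10 tested, 1 higher and 0 lower), *Nfe2l2* itself was at 48.2, 65.3 and 70.9 TPM in WT and 35.3, 31.2 and 55.8 TPM in cKO (log2 fold change -0.61, SE 0.29, adjusted p = 0.315). *Keap1* (-0.31, SE 0.30) and *Bach1* (-0.18, SE 0.30) had adjusted p-values of 0.606 and 0.778. The small MAF gene *Mafg* was at 13.4, 10.5 and 20.9 TPM in WT and 26.9, 21.9 and 30.8 TPM in cKO, with no overlap (0.83, SE 0.31, unadjusted p = 0.0317 from limma). The small MAF gene *Maff* was lower in cKO without overlap, at 1.02, 3.61 and 1.29 against 0.882, 0.467 and 0.0954 TPM (-0.94, SE 0.41, unadjusted p = 0.0541 from limma). *Mafk*, another small MAF gene, overlapped (-0.50, SE 0.33). Of all genes tested, 18.7% were higher and 7.18% lower in cKO without overlap. *Mtf1*, which encodes the metal sensor of the metallothionein genes, was at 5.59, 4.79 and 6.85 TPM in WT and 8.17, 9.99 and 10.8 TPM in cKO, also without overlap (0.66, SE 0.27, unadjusted p = 0.0429). *Mtf1* was the 1 gene of 11 on the zinc list at that threshold, and *Mt4*, a metallothionein of squamous epithelia, was listed at 0 in all libraries. After scaling by the median of ratios, *Mafg* and *Mtf1* were at unadjusted p-values of 0.0757 and 0.0964 from limma, and *Maff* at 0.0346.

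The haem and iron genes (8 tested, 1 higher and 3 lower at an unadjusted p under 0.05) included both ferritin subunits, which store iron, and the receptor that takes it up. Of all genes tested, 11.9% were higher and 6.45% lower at that threshold. *Fth1*, the ferritin heavy chain, was at 4122, 3106 and 3836 TPM in WT and 2229, 1862 and 1809 TPM in cKO. *Ftl1*, the ferritin light chain, was at 2858, 2786 and 3473 TPM in WT and 1688, 1242 and 1543 TPM in cKO. *Tfrc*, the transferrin receptor, was at 30.7, 37.2 and 41.3 TPM in WT and 83.5, 88.6 and 74.1 TPM in cKO. Both ferritin genes lay lower and *Tfrc* higher in every cKO library, with log2 fold changes of -0.90 (SE 0.24), -1.03 (SE 0.24) and 1.16 (SE 0.21) and adjusted p-values of 0.147, 0.125 and 0.124 from limma. Biliverdin reductase B (*Blvrb*) had a log2 fold change of -0.81 (SE 0.34) without overlap and an adjusted p of 0.262. In the same libraries the summed myeloid and T cell markers were lower and the rod markers higher, as given above, and their part in these values was not tested.

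Of 11 thioredoxin and peroxiredoxin genes, at an unadjusted p under 0.05, 4 were lower in cKO and 1 was higher. Of all genes tested, 6.45% were lower and 11.9% higher at that threshold. *Prdx1*, a peroxiredoxin and NRF2 target, was at 633, 858 and 805 TPM in WT and 424, 394 and 469 TPM in cKO (log2 fold change -0.83, SE 0.21). The thioredoxin inhibitor *Txnip* (-1.26, SE 0.40) and *Prdx4* (-0.63, SE 0.20) had separate groups too, *Prdx6* overlapped (-0.88, SE 0.36), and the mitochondrial reductase *Txnrd2* was the higher one (0.51, SE 0.21). Their adjusted p-values ran from 0.142 to 0.269. After scaling by the median of ratios, 4 genes of this list were lower and 0 higher, with *Txnrd2* at an unadjusted p of 0.107. On the list of malic enzyme, isocitrate dehydrogenase and pentose phosphate genes (6 tested), 3 were higher in cKO at that threshold and 0 lower. The NADPH-making enzymes among them were malic enzyme *Me1* (1.01, SE 0.21) and glucose-6-phosphate dehydrogenase *G6pdx* (0.48, SE 0.20), and the other was transketolase *Tkt* (0.73, SE 0.26), of the branch of the pentose phosphate pathway that makes none. Transaldolase *Taldo1*, of the same branch, was lower without overlap at an unadjusted p of 0.0994 (-0.41, SE 0.22). After scaling by the median of ratios, 1 gene of this list was higher (*Me1*) and 1 lower (*Taldo1*) at an unadjusted p under 0.05. *G6pdx* and *Tkt* were then at unadjusted p-values of 0.149 and 0.0591 from limma. *Me1* was at 20.8, 20.4 and 22.3 TPM in WT and 39.2, 42.4 and 49.9 TPM in cKO, with an adjusted p of 0.124. Among 20 glutathione genes, *Glrx* (glutaredoxin, -0.95, SE 0.20, adjusted p = 0.124) was lower and *Ggt7* (0.79, SE 0.27, adjusted p = 0.199) higher without overlap. No gene of the superoxide list (4 tested) or of the further NRF2 targets (9 tested) had an unadjusted p under 0.05 in the fit without block or scaling. With the replicate block 1 superoxide gene and 2 further targets were lower and 0 higher, where 8.52% of all genes tested were lower and 13.4% higher. After scaling by the median of ratios 1 superoxide gene and 0 further targets were lower, where 9.54% of all genes tested were.

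**Figure D4:**
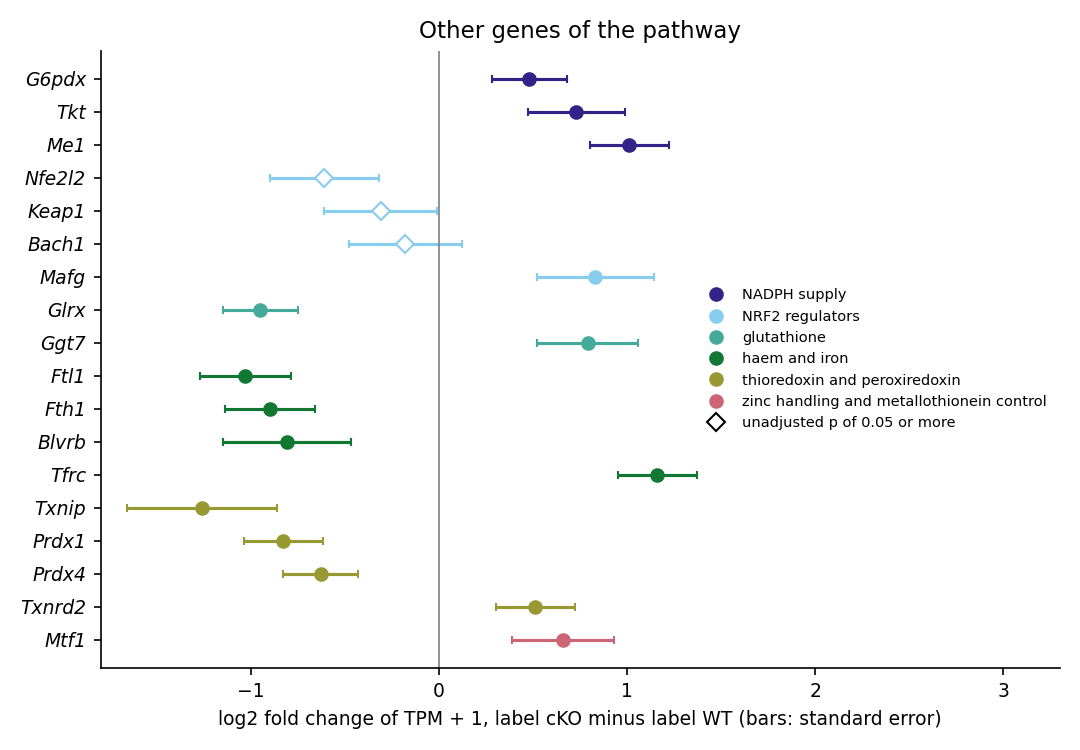
Log2 fold change of TPM + 1 (cKO minus WT) with its standard error for the pathway genes at an unadjusted p under 0.05 whose groups do not overlap (filled circles) and for *Nfe2l2*, *Keap1* and *Bach1* (open diamonds), coloured by list. *Tfrc* and *Me1* are the farthest to the right at 1.16 and 1.01, and *Txnip* and *Ftl1* the farthest to the left at -1.26 and -1.03.

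ATAC-seq marks open chromatin by where a transposase can cut. The authors compared 16600 regions and gave 1 mean per group for each, as the log2 of normalized reads, so region values have no replicate spread here. The authors' own p-values for the regions were not used, and no test was run on them. Of these regions, 3 lay within 1000 bp of an end of a member gene. The region at the *Gclm* start (chr3:122245179-122246228) had 32.9 normalized reads in WT and 3.94 in cKO, or 5.04 and 1.98 on the log2 scale, a difference of -3.06. The region at the *Srxn1* start (chr2:152105155-152106072) had 49.2 against 4.72 reads, or 5.62 and 2.24, a difference of -3.38. Both regions held a peak in WT1 and WT2 and in neither cKO library. At *Mt3* (chr8:94152229-94152706) the reads were 8.11 in WT and 6.06 in cKO, a log2 difference of -0.42, with a peak in WT1 and in cKO2. The background sets the scale, since 88.8% of the 8002 regions at gene ends were lower in cKO by over 1 on the log2 scale, with a median difference of -2.50, and 2 of the 3 member regions were. The differences at *Gclm* and *Srxn1* lay on the side that most gene ends share, and that at *Mt3* was smaller than 1.

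Counting peaks of each library at either gene end, 4 members had one in WT1, 6 in WT2, 1 in cKO1 and 1 in cKO2. The same share over all tested genes with a position was 65.1%, 58.2%, 13.6% and 13.9%. *Mt2*, *Gclm* and *Srxn1* had a peak in both WT libraries and none in cKO. At *Mt2* the peaks of WT1 and WT2 did not overlap, and no compared region lay within 1000 bp of its ends. They lay -536 to -281 bp from the start site in WT1, and at -852 to -623 and 15 to 729 bp in WT2. *Mt1*, *Hmox1* and *Gclc* had a peak in WT2 alone, *Mt3* in WT1 and cKO2, and *Txnrd1* in cKO1 alone. *Nqo1* and *Slc7a11* had none in any library, and no compared region lay at the ends of *Hmox1*, *Nqo1* or *Gclc*.

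Some regions near the members went past the limit of 1000 bp. Between *Mt2* and *Mt1*, 2356 bp from the end of *Mt2* and 2418 bp from the start of *Mt1*, a region at chr8:94175923-94176465 had 1.64 reads in WT and 12.7 in cKO, or 0.71 and 3.67 on the log2 scale. It was higher in cKO by 2.96, with peaks in cKO1 and cKO2 but none in WT1 or WT2, and 8.67% of all 16600 regions were higher by over 1. A region 1327 bp from *Slc7a11* (chr3:50500414-50500772) had a peak in both WT libraries alone and log2 values of 2.84 and 0.27, a difference of -2.57. In *Txnrd1* the WT peaks lay at start sites inside the gene, a choice made after the values were seen. The first of these regions (chr10:82859014-82859755), over the inner start site whose promoter is printed above, had 27.3 reads in WT and 2.66 in cKO, a log2 difference of -3.36. The second (chr10:82860221-82860976) had 16.9 against 2.99 reads, a difference of -2.50. Side by side with the RNA, *Srxn1* had a log2 difference of -3.38 in ATAC-seq and a log2 fold change of 0.63 in TPM + 1, *Gclm* -3.06 and -0.91, and *Mt3* -0.42 and 1.00. The RNA-seq and ATAC-seq values come from different libraries.

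**Figure D5:**
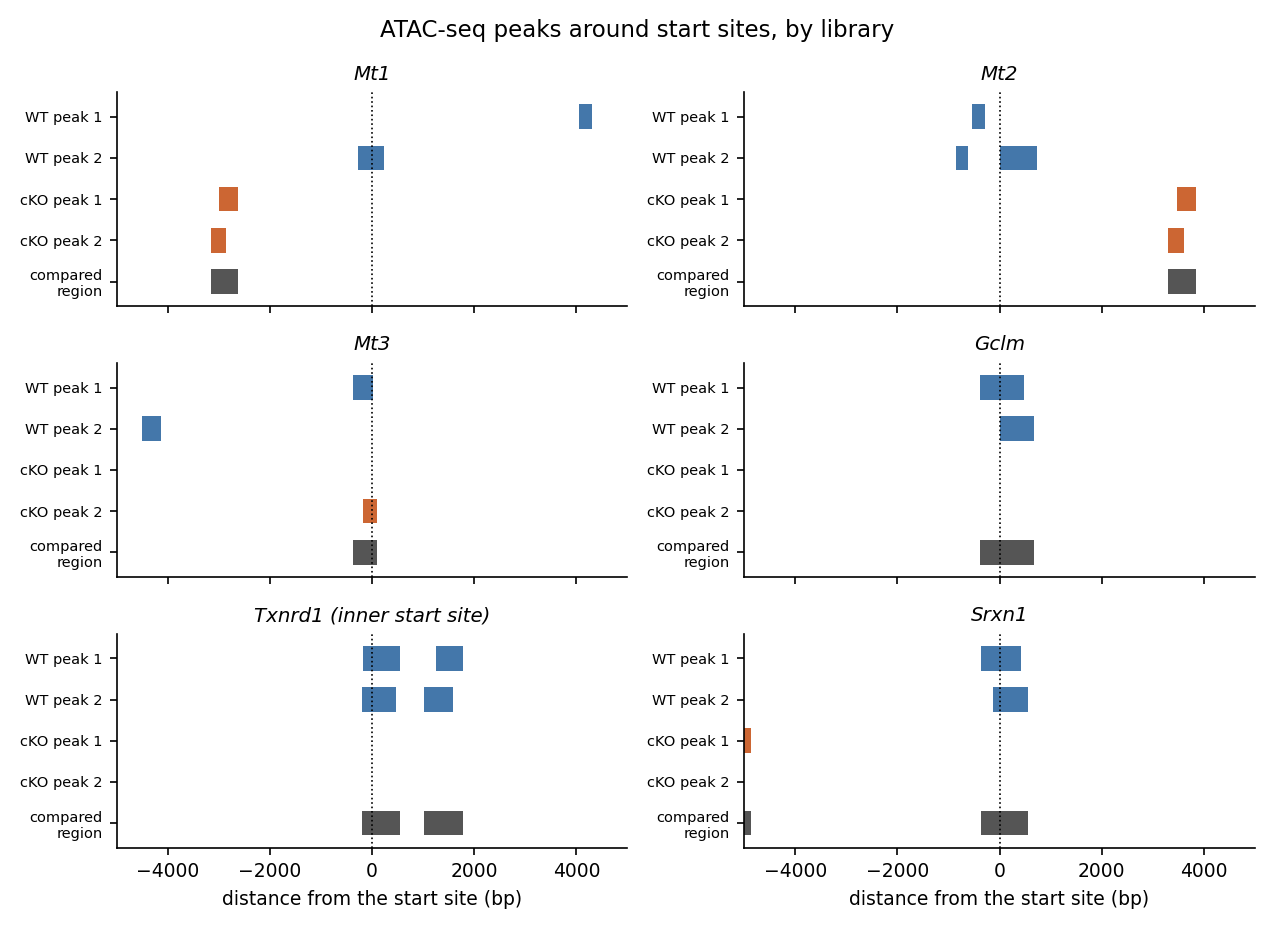
Peaks of the 4 ATAC-seq libraries (blue for WT, orange for cKO) and the compared regions (grey) by distance in bp from a start site of *Mt1*, *Mt2*, *Mt3*, *Gclm*, *Txnrd1* and *Srxn1*, with 0 at the start site and the direction of transcription to the right. Of the peaks within 1000 bp of the start sites of *Gclm*, *Srxn1* and inner *Txnrd1*, all are blue, and the orange bars between *Mt2* and *Mt1* have no blue bar beside them.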

How the data were processed

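By the sample labels there are 3 WT and 3 cKO libraries of RNA-seq, and 2 of each kind of ATAC-seq. The authors trimmed the RNA-seq reads, quantified GENCODE transcripts with Salmon 1.0.0 and summed them to genes, and deposited TPM, which were used here with no further scaling. Sequencing depth cannot be read from TPM and is unknown here. For ATAC-seq the deposited table holds, on a log2 scale, the mean normalized reads of a group in each region, made after alignment with Bowtie2 2.3.5.1 to GRCm38, beside peak positions per library. The authors' fold changes and p-values in these tables were not used.

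The 17555 genes that reached 1 TPM in 3 or more of the 6 libraries were fitted on log2(TPM + 1) in limma 3.58.1 (R 4.3.3, eBayes with its trend option). p-values were adjusted by the Benjamini-Hochberg method over these genes, at a threshold of 0.05. A fold change on this scale understates that of low genes. Exact permutation tests were two-sided. p-values measure the spread between pools of retinas. The fit was tested on simulated data. The members and lists were chosen with earlier results of these data known. Named are all members, pathway genes at an unadjusted p under 0.05 without overlap (at most 20), *Nfe2l2*, *Keap1*, *Bach1* and *Mtf1*, the 5 nearest profiles to *Mt1* with *Mt2* and to *Hmox1*, and *Arid1a*. Some of the genes this rule gives are not reported here. *Prdx6*, *Taldo1*, *Mt4*, *Maff*, *Mafk* and genes listed for a library order were named after their values were seen. So were the RGC markers given with fold changes below 0. Same-numbered WT and cKO libraries correlated at 0.334, 0.101 and 0.425 in their deviations from the group means over genes, with WT1 and cKO2 at 0.193 and the other unequal pairs lower. Each same-numbered value is over 0.1, and on that basis a fit with the number as a block was run as an alternative. The labels do not say that the numbers pair the libraries, and cKO2 correlated more with WT1 than with WT2. The blocked results therefore rest on a pairing inferred from these same data. The other alternatives are a pseudocount of 0.1, no filter, scaling by the median of ratios, a filter on the mean TPM at 5, no trend, and leaving out each library. Leaving out both replicate 3 libraries was chosen after seeing the data. For ATAC-seq they are 3000 bp, a reciprocal overlap of 50%, differences relative to the median region, and peaks in both WT libraries. Gene ends and promoters are from RefSeq on GRCm38.p6, where 15518 of the 17555 genes have a position, and printed positions are counted from 1. Counts were made with pandas 2.3.3, numpy 2.4.6 and scipy 1.17.1, and figures with matplotlib 3.10.9, in Python 3.11.15.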

Additional observations from a re-analysis of the deposited data

How the results depend on the processing

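No member reached an adjusted p of 0.05 in limma under any alternative run, and the adjusted p ran from 0.0826 to 0.985 over 31 genes (the members, the 15 pathway genes at an unadjusted p under 0.05 without overlap, *Nfe2l2*, *Keap1*, *Bach1*, *Prdx6*, *Taldo1* and *Arid1a*). Of 399 pairs of such a gene and an alternative, 397 kept the direction of the log2 fold change. The exceptions were *Slc7a11*, which ranged from -0.17 (without cKO3) to 0.41 when single libraries were left out, and *Bach1*, which ranged from -0.30 to 0.02 (without WT2). Members at an unadjusted p under 0.05 numbered 2 after scaling by the median of ratios and 3 with the replicate block. They numbered 0 to 3 when single libraries were left out, with 0 left without cKO2. Over all genes tested that share was 17.2% after scaling, 21.9% with the block and 9.86% to 20.4% without single libraries. Members whose groups did not overlap numbered 2 after scaling, 6 without both replicate 3 libraries and 1 to 4 without single libraries. Over all genes tested the share without overlap was 25.8% with all libraries, 23.8% after scaling, 51.2% without both replicate 3 libraries and 29.6% to 42.4% without single libraries, since smaller groups separate more often. Pathway genes higher in cKO numbered 3 after scaling, 5 without both replicate 3 libraries and 2 to 8 without single libraries. Pathway genes lower in cKO numbered 16 after scaling, 13 with the replicate block and 5 to 14 without single libraries. Of all genes tested, 7.62% were higher after scaling, 10.0% without both replicate 3 libraries and 5.89% to 13.5% without single libraries. The share lower was 9.54% after scaling, 8.52% with the block and 3.97% to 7.90% without single libraries. Scaling moved the median over all genes tested, as a log2 fold change, from 0.16 to 0.01, and the cause of the other shifts was not tested. The block changed no adjusted call. The median log2 difference of the ATAC-seq regions at member genes, -3.06, was -2.57 within 3000 bp, -1.49 relative to the median of all regions and -3.22 for regions with peaks in both WT libraries. For the ATAC-seq regions no paired fit could be run, since they hold group means alone. Without depth, counting error cannot be told from the spread of low genes such as *Slc7a11* and *Mt2*.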
